A study of Mus musculus with 4 samples.

Results

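Bcl6, Prdm1 and 5 other genes of the follicular helper T cell programme were followed in Treg and T-effector samples of mouse CD4 T cells. The 7 genes, Bcl6, Ascl2, Pou2af1, Prdm1, Cxcr5, Slamf6 and Sh2d1a, were taken by name and make 7 of the 19901 genes tested. CD4 cells from lymph nodes were grown for 4 days on plates coated with anti-CD3 at 1 ug/ml, which engages the T cell receptor. Every culture received IL2 at 100 units/ml during 3 days of cytokine treatment. IL2 was combined with TGFb at 4 ng/ml and IL6 at 25 ng/ml (4 arrays, called TGFb with IL6), with TGFb (3 arrays), with IL6 (3 arrays) or given as the sole cytokine (3 arrays, called IL2). On each of the 13 two-colour arrays 1 dye carried a Treg sample and the other a T-effector sample of the same condition, which gave 26 channels. The labels name no mouse strain or age, and the marker used to part Treg from T-effector cells is not given in the sources used here. Nor do they say whether arrays of a condition come from separate cultures, so p-values measure the spread between arrays, which may be technical.

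Follicular helper T cells help B cells in germinal centres. Bcl6, a zinc finger repressor, is needed for their formation, and Prdm1 encodes Blimp1, a repressor that acts against Bcl6 and marks effector T cells that do not turn follicular. IL6 and IL21 signal through STAT3 towards Bcl6, whereas IL2 signals through STAT5 towards Blimp1. Bcl6 is also a factor of germinal centre B cells, Blimp1 a factor of plasma cells, and Blimp1 is known to be high in effector Treg cells. A Treg cell that takes up the Bcl6 programme and Cxcr5 is known as a follicular regulatory T cell.

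The array carried 9 probes for the 7 genes, and 8 passed the filter, which asked for a signal well above background in at least 3 of the 26 channels. A gene's brightest probe, by its mean over all channels, carried the test. Positions are those of the array's own annotation, in mouse build mm7. The Bcl6 probe A_52_P161495 lies at chr16:23623679-23623738 on the minus strand and was well above background in 25 of 26 channels. The Prdm1 probe A_51_P338746 lies at chr10:44250799-44250858 (minus, 24 channels), and the Cxcr5 probe A_52_P70796, listed under the older name Blr1, at chr9:44446333-44446392 (minus, 23 channels). The Pou2af1 probe A_51_P183581 lies at chr9:51218585-51218644 (plus, 26 channels) and the Ascl2 probe A_51_P469147 at chr7:139395814-139395873 (minus, 25 channels). The Sh2d1a probe A_51_P172514 lies at chrX:37613995-37614054 (plus, 26 channels). The tested Slamf6 probe A_52_P45563 spans 1329 bases at chr1:171906779-171908107 (plus, 26 channels). A second Slamf6 probe, A_52_P507578 at chr1:171913582-171913641, passed the filter too and is given beside it. A second Sh2d1a probe, A_52_P641747 at chrX:37615251-37615310, was well above background in 0 of 26 channels and was not tested. No channel of these probes was saturated. Which exon or untranslated part each probe covers was not analysed here.

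Signals below are normalized log2 intensities after background correction with an offset, which draws low signals together and so makes fold changes of dim probes smaller. Between 38.9% and 69.7% of probes were well above background in a Treg channel, and between 41.7% and 67.0% in a T-effector channel. The 13 arrays came from 5 slides, lettered A to E. Slide B, with TGFb array 2 and TGFb with IL6 arrays 2 and 4, had Cy3 negative controls of 118.3 to 122.4 over local background, against 2.97 to 25.0 on the others. On slide E, with TGFb array 1, TGFb with IL6 array 1 and IL6 arrays 1 and 3, a spatial trend accounted for 30.6% to 50.9% of log ratio variance. It accounted for 9.42% to 17.5% on slide D and at most 4.79% on slides A, B and C. Conditions were not spread evenly over slides, so the difference within a slide is given beside results where a slide held both conditions with the same dyes. Foxp3, the defining factor of Treg cells, was well above background in all 26 channels and exceeded its T-effector level in the Treg samples of each condition, by 1.95 ± 0.17 (TGFb) to 2.39 ± 0.17 (IL2) on the log2 scale (SE; limma, adjusted p at most 5.8e-05). Cd3e was well above background in all 26 channels and Cd4 in 13 Treg and 12 T-effector channels. In bulk samples fewer cells that express a gene and less of its RNA per cell cannot be told apart.

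**Figure D1:**
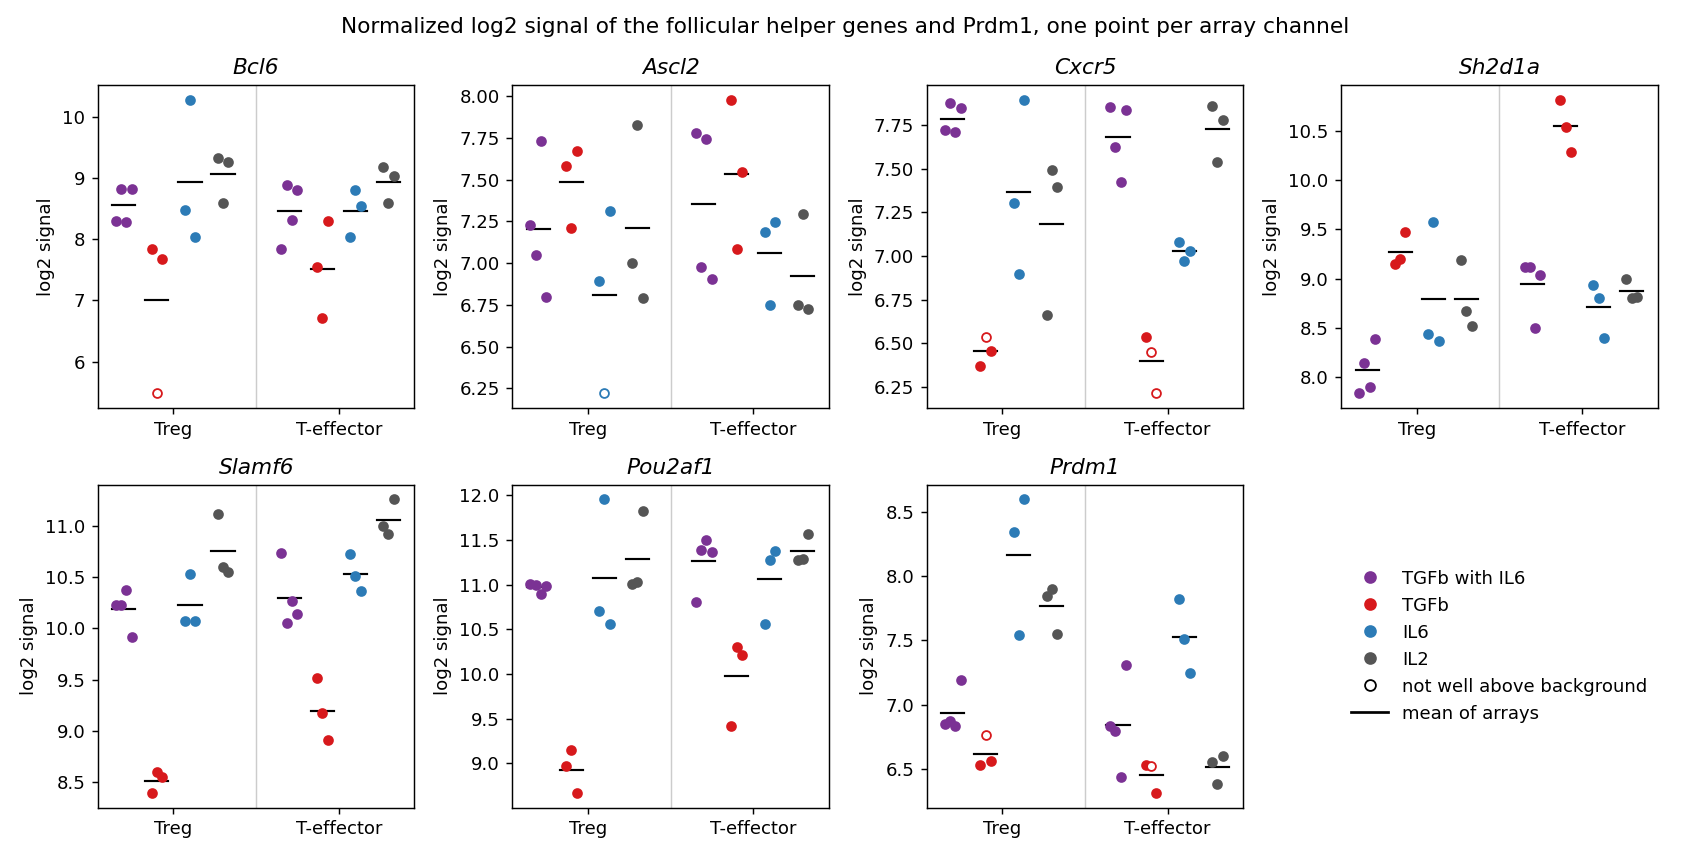
Normalized log2 signal (y axis, its own range in each panel) of each gene in Treg (left) and T-effector (right) channels, 1 point per array, open where not well above background, with conditions in the order of the legend and the mean as a line. Slamf6 lies between 8.39 and 8.60 in TGFb Treg samples and at 9.91 or above in every other Treg sample, and the Bcl6 value of 5.48 in TGFb Treg array 2 stands below the other channels.

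The comparison of TGFb with IL2 asks what TGFb does to these genes in activated cells that already receive IL2. In Treg samples 5 of the 7 genes fell with TGFb and 0 rose (limma's separate-channel fit, Benjamini-Hochberg adjusted over all genes). Over all genes 7.9% passed the test, 4.17% in the lower direction. The median log2 difference was -1.102 over the 7 genes and -0.002 over all genes. Those that fell were Bcl6, Pou2af1, Prdm1, Cxcr5 and Slamf6. In T-effector samples 3 of the 7 fell, Pou2af1, Cxcr5 and Slamf6, and 1 rose, Sh2d1a. There 4.53% of all genes passed, 2.55% in the lower direction, with a median of 0.02 against -1.31 over the 7 genes.

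Bcl6 had log2 signals of 7.83, 5.48 and 7.68 in TGFb Treg samples, against 9.33, 8.59 and 9.25 in IL2 Treg samples. The groups do not overlap, and the value of 5.48, on slide B in Cy3, was not well above background. The fitted change was -2.13 ± 0.51 (SE; 4.39-fold lower, adjusted p = 0.00982). Without TGFb array 2 it was -1.35 with an adjusted p of 0.0719, without IL2 array 3 the adjusted p was 0.0533, and within slide D, the only slide with both conditions, it was -0.91. With slide as a block it was -1.38 with an adjusted p of 0.244, and without slide B -1.36 with an adjusted p of 0.0796. In T-effector samples Bcl6 had 7.54, 6.72 and 8.30 with TGFb and 9.17, 8.59 and 9.03 with IL2. These groups do not overlap either, but the difference of -1.34 ± 0.51 did not pass the test (adjusted p = 0.16), and within slide D it was -0.29.

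Ascl2, a basic helix-loop-helix factor known to induce Cxcr5, passed the test in neither sample type. It had 7.58, 7.21 and 7.67 in TGFb Treg samples against 7.001, 7.83 and 6.79 in IL2 Treg samples, and 7.98, 7.08 and 7.54 in TGFb T-effector samples against 6.75, 7.30 and 6.72 in IL2 T-effector samples. The groups overlap in both sample types, and the differences of 0.32 ± 0.29 and 0.57 ± 0.29 did not pass the test (adjusted p = 0.642 and 0.312). Within slide D they were -0.16 in Treg, the opposite sign to the fit, and 0.25 in T-effector samples.

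Pou2af1, a coactivator of octamer-binding factors best known from B cells, had 8.97, 9.15 and 8.67 in TGFb Treg samples, against 11.01, 11.03 and 11.82 in IL2 Treg samples. All TGFb values lie below all IL2 values, with a change of -2.44 ± 0.30 (5.45-fold lower, limma, adjusted p = 8.06e-06). Its T-effector signals were 9.42, 10.31 and 10.21 with TGFb and 11.27, 11.29 and 11.56 with IL2, a change of -1.31 ± 0.30 (2.48-fold lower, adjusted p = 0.0125). That call was lost without IL2 array 1, TGFb array 1 or TGFb array 3 (adjusted p = 0.0547 to 0.104, change -1.36 to -1.08) and with slide as a block (-0.89, adjusted p = 0.146). Within slide D the changes were -2.36 in Treg and -1.07 in T-effector samples.

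Prdm1 had 6.53, 6.76 and 6.56 in TGFb Treg samples, against 7.85, 7.90 and 7.55 in IL2 Treg samples. The groups do not overlap, and Prdm1 changed by -1.102 ± 0.23 on the log2 scale (2.15-fold lower, limma, adjusted p = 0.00278), with -1.35 within slide D. T-effector channels gave 6.53, 6.52 and 6.31 with TGFb and 6.55, 6.38 and 6.60 with IL2. Those groups overlap and the difference was -0.10 ± 0.23 (adjusted p = 0.845), with -0.07 within slide D. Prdm1 on TGFb array 2, slide B, was not well above background in either channel. On the 3 IL2 T-effector arrays it was, but with signals as low as on that array, which limits the fall that could be seen there.

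Cxcr5, the receptor for the chemokine of B cell follicles, had 6.37, 6.54 and 6.46 in TGFb Treg samples, against 6.66, 7.49 and 7.40 in IL2 Treg samples. In T-effector samples it had 6.53, 6.45 and 6.21 with TGFb and 7.86, 7.54 and 7.78 with IL2. Neither pair of groups overlaps, and Cxcr5 changed by -0.65 ± 0.19 in Treg samples (1.57-fold lower, limma, adjusted p = 0.0338) and -1.41 ± 0.19 in T-effector samples (2.66-fold lower, adjusted p = 5.73e-05). The Cxcr5 probe was well above background on 2 of 3 TGFb arrays in Treg and on 1 of 3 in T-effector channels. The Treg call was lost without any 1 of 6 arrays, IL2 arrays 2 and 3, TGFb arrays 1 and 3, TGFb with IL6 array 1 and IL6 array 1 (adjusted p = 0.0508 to 0.202, change -0.65 to -0.54), and without slide E (-0.66, adjusted p = 0.187). Within slide D the changes were -1.04 in Treg and -1.33 in T-effector samples.

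Slamf6, a SLAM family receptor through which T and B cells hold contact, had 8.39, 8.60 and 8.55 in TGFb Treg samples, against 11.11, 10.60 and 10.55 in IL2 Treg samples. Its T-effector signals were 9.51, 9.18 and 8.91 with TGFb and 10.997, 10.92 and 11.26 with IL2. All TGFb values lie below all IL2 values in both sample types. Slamf6 changed by -2.24 ± 0.22 in Treg samples (4.71-fold lower, limma, adjusted p = 4.13e-07) and -1.86 ± 0.22 in T-effector samples (3.63-fold lower, adjusted p = 1.39e-05). The second probe fell by 1.21 ± 0.14 and 1.02 ± 0.14 in the fit of every probe (adjusted p = 3.99e-06 and 9.26e-05). Within slide D the tested probe changed by -2.05 in Treg and -2.01 in T-effector samples.

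Sh2d1a encodes SAP, the adaptor that SLAM receptors signal through and that T cells need to help germinal centre B cells. It had 10.82, 10.54 and 10.28 in TGFb T-effector samples, against 8.997, 8.80 and 8.82 in IL2 T-effector samples. All TGFb values are higher, and Sh2d1a rose by 1.64 ± 0.28 (3.12-fold, limma, adjusted p = 7.82e-04), with 1.48 within slide D. In Treg samples it had 9.15, 9.20 and 9.47 with TGFb and 9.19, 8.67 and 8.52 with IL2. These groups overlap and the difference was 0.51 ± 0.28 (adjusted p = 0.336), with 0.80 within slide D.

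**Figure D2:**
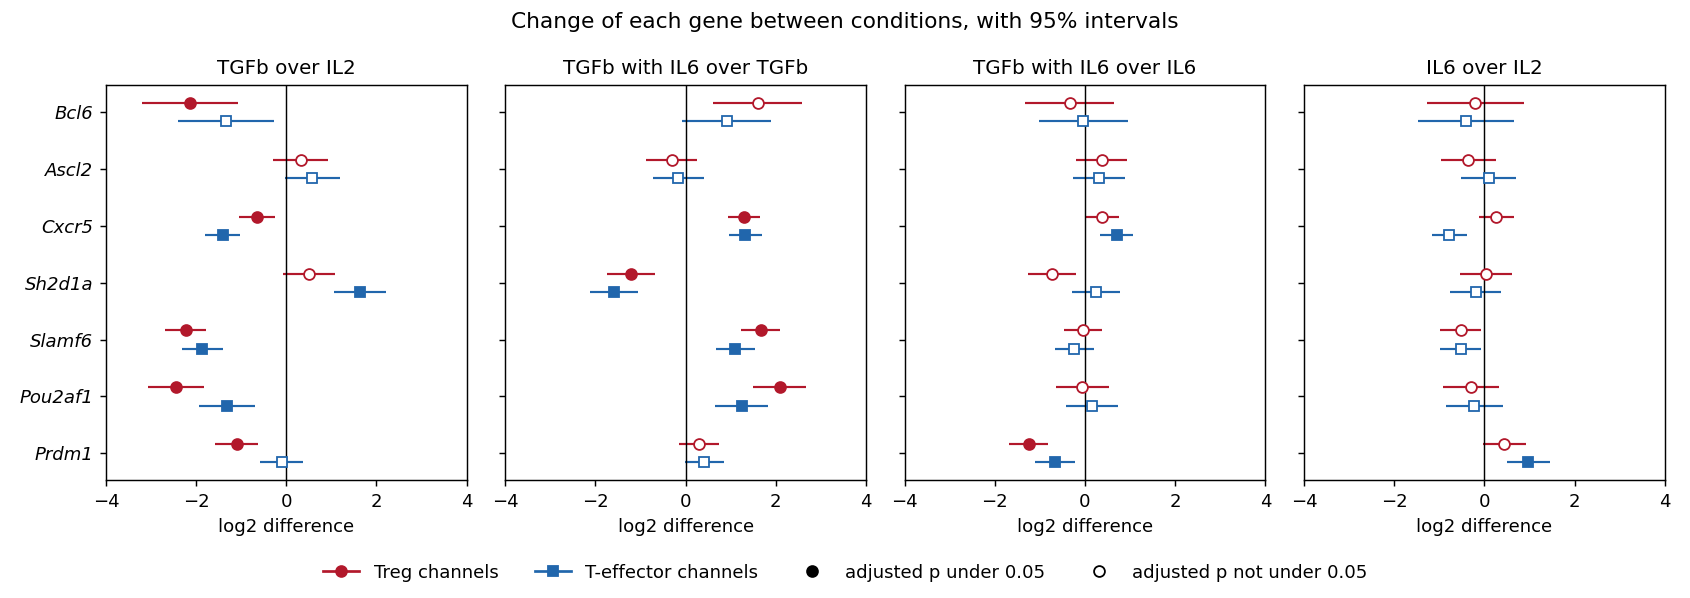
Log2 difference of each gene (rows) in 4 comparisons of conditions (panels), for Treg channels (circles) and T-effector channels (squares), with 95% intervals, filled where the adjusted p was under 0.05. In the panel of TGFb over IL2 the Slamf6 values are -2.24 and -1.86, and in the panel of TGFb with IL6 over TGFb they are 1.67 and 1.099.

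The comparison of TGFb with IL6 against TGFb asks what IL6 adds to cells under TGFb. It shares the TGFb arrays with the comparison above, so the directions of the 2 comparisons are not independent and each is given by its own values. In Treg samples 3 of the 7 genes rose, Pou2af1, Cxcr5 and Slamf6, and 1 fell, Sh2d1a, where 5.72% of all genes passed (2.88% higher). In T-effector samples the same 3 rose and Sh2d1a fell, where 7.61% passed (4.22% higher). The median log2 difference over the 7 genes was 1.29 in Treg and 0.91 in T-effector samples, and over all genes -0.03 and -0.02.

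Pou2af1 had 11.01, 10.99, 10.89 and 10.99 in Treg samples with TGFb and IL6, against 8.97, 9.15 and 8.67 with TGFb. In T-effector samples it had 10.80, 11.39, 11.50 and 11.37 with TGFb and IL6 and 9.42, 10.31 and 10.21 with TGFb. Neither pair overlaps, and Pou2af1 rose by 2.09 ± 0.28 in Treg (4.25-fold, limma, adjusted p = 3.4e-05) and 1.24 ± 0.28 in T-effector samples (2.36-fold, adjusted p = 0.00643). The T-effector call was lost without TGFb array 1 (1.004, adjusted p = 0.0793) and without slide B (1.33, adjusted p = 0.0928). On the 3 slides that hold both conditions the rise was 1.85 to 2.23 for Treg and 1.09 to 1.38 for T-effector channels.

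Cxcr5 had 7.72, 7.87, 7.71 and 7.85 in Treg samples with TGFb and IL6, against 6.37, 6.54 and 6.46 with TGFb. T-effector channels gave 7.85, 7.62, 7.42 and 7.84, against 6.53, 6.45 and 6.21. No values of the groups overlap, and Cxcr5 rose by 1.29 ± 0.17 (2.45-fold, limma, adjusted p = 3.48e-05) and 1.33 ± 0.17 (2.51-fold, adjusted p = 2.21e-05). Within slides the rise was 1.26 to 1.35 for Treg and 1.17 to 1.32 for T-effector channels.

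Slamf6 had 10.22, 10.22, 10.37 and 9.91 in Treg samples with TGFb and IL6, against 8.39, 8.60 and 8.55 with TGFb. The T-effector values were 10.73, 10.05, 10.26 and 10.14, against 9.51, 9.18 and 8.91. Again no values overlap, and Slamf6 rose by 1.67 ± 0.21 (3.18-fold, limma, adjusted p = 1.25e-05) and 1.099 ± 0.21 (2.14-fold, adjusted p = 0.00127). Its second probe rose by 0.80 ± 0.13 in Treg and 0.79 ± 0.13 in T-effector samples (adjusted p = 3.77e-04 and 3.95e-04). Within slides the tested probe differed by 1.62 to 1.83 for Treg and 0.88 to 1.35 for T-effector channels.

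Sh2d1a went the other way. It had 7.84, 8.14, 7.90 and 8.39 in Treg samples with TGFb and IL6, against 9.15, 9.20 and 9.47 with TGFb, and 9.12, 9.12, 8.50 and 9.04 in T-effector samples, against 10.82, 10.54 and 10.28. All values with IL6 are lower, and Sh2d1a fell by 1.22 ± 0.26 in Treg (2.33-fold, limma, adjusted p = 0.00429) and by 1.59 ± 0.26 in T-effector samples (3.01-fold, adjusted p = 2.81e-04). Without slide B the Treg change was -1.44 with an adjusted p of 0.0623. Within slides it ranged over -1.57 to -1.05 for Treg and -1.78 to -1.42 for T-effector channels.

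Bcl6 had 8.30, 8.83, 8.28 and 8.82 in Treg samples with TGFb and IL6, against 7.83, 5.48 and 7.68 with TGFb. The groups do not overlap, but the difference of 1.59 ± 0.48 missed the threshold (limma, adjusted p = 0.0532). It was 0.80 without TGFb array 2 (adjusted p = 0.392) and 0.53 without slide B (adjusted p = 1), and without TGFb array 1, TGFb array 3 or IL6 array 2 it passed (adjusted p = 0.043, 0.0358 and 0.0225). It also passed without slide E (2.05, adjusted p = 0.0256) and under 5 other processing settings (adjusted p = 0.0324 to 0.0477). Within the 3 slides that hold both conditions it ran from 0.46 to 3.34. In T-effector samples Bcl6 had 7.84, 8.89, 8.31 and 8.81, against 7.54, 6.72 and 8.30, a difference of 0.91 ± 0.48 between groups that overlap (adjusted p = 0.34), with 0.01 to 2.17 within slides. Prdm1 had 6.85, 6.87, 6.83 and 7.19 in Treg samples with TGFb and IL6, against 6.53, 6.76 and 6.56, a difference of 0.29 ± 0.21 between groups that do not overlap (adjusted p = 0.594), with 0.11 to 0.32 within slides. In T-effector samples Prdm1 differed by 0.42 ± 0.21 (adjusted p = 0.319), with 0.13 to 0.31 within slides. With Agilent's processed signals that difference was 1.52 ± 0.40 and passed (adjusted p = 0.0145). Ascl2 had differences of -0.31 ± 0.27 and -0.17 ± 0.27 (adjusted p = 0.708 and 0.866), with -0.35 to 0.06 and -0.20 to 0.20 within slides.

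Arrays 1, 2 and 3 of these 2 conditions share slide and dyes, and the fit with the replicate number as a block, on those 6 arrays, called the same number of members, 4, in each sample type, where 20% of all genes passed in Treg and 27.1% in T-effector samples. Bcl6 remained uncalled there (adjusted p = 0.101 in Treg and 0.0506 in T-effector samples).

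The comparison of TGFb with IL6 against IL6 asks what TGFb adds to cells under IL6. In Treg samples 1 of the 7 genes changed, where 10.3% of all genes passed, and in T-effector samples 2 of 7 changed, where 11.4% passed. Prdm1 had 6.85, 6.87, 6.83 and 7.19 in Treg samples with TGFb and IL6, against 8.34, 7.54 and 8.60 with IL6. The groups do not overlap, and Prdm1 fell by 1.25 ± 0.21 (2.38-fold, limma, adjusted p = 3.06e-04). In T-effector samples it had 6.84, 6.79, 6.44 and 7.31, against 7.83, 7.51 and 7.25, groups that overlap, and fell by 0.66 ± 0.21 (1.58-fold, adjusted p = 0.0458). Within slide E the Prdm1 differences were -1.49 in Treg and -0.99 in T-effector samples, and without slide E they were -0.58 and -0.67 (adjusted p = 0.371 and 0.319). The T-effector call of Prdm1 was lost without any 1 of 9 arrays, IL2 arrays 1 and 2, TGFb arrays 1 to 3, TGFb with IL6 arrays 1 to 3 and IL6 array 1 (-0.66 to -0.54, adjusted p = 0.0552 to 0.209).

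Cxcr5 had 7.85, 7.62, 7.42 and 7.84 in T-effector samples with TGFb and IL6, against 7.08, 6.97 and 7.03 with IL6. All 4 values are higher, and Cxcr5 rose by 0.70 ± 0.17 (1.62-fold, limma, adjusted p = 0.0102), with 0.77 within slide E. Without slide E the difference was 0.78 with an adjusted p of 0.275, and with slide as a block 0.59 with 0.0553. In Treg samples Cxcr5 had 7.72, 7.87, 7.71 and 7.85, against 7.30, 6.90 and 7.90, which overlap (0.38 ± 0.17, adjusted p = 0.205; 0.41 within slide E). The differences of Bcl6, Pou2af1, Slamf6 and Ascl2 lay between -0.34 and 0.37 in both sample types, with adjusted p of 0.49 or above, and between -0.19 and 0.59 within slide E, where those of Slamf6 in both sample types and Pou2af1 in Treg samples had the opposite sign to the fit. Sh2d1a differed by -0.74 ± 0.26 in Treg samples (adjusted p = 0.0753) and 0.25 ± 0.26 in T-effector samples (adjusted p = 0.63), with -0.60 and 0.19 within slide E. The Treg difference of Sh2d1a passed without IL6 array 3 (-1.01, adjusted p = 0.0393) and without slide E (-1.47, adjusted p = 0.0126). Leaving out slide E leaves IL6 with array 2 alone, which is assumed to vary like the other conditions.

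With arrays 1 to 3 of both conditions as a replicate block, 0 members passed in Treg samples (3.19% of all genes) and 3 in T-effector samples (32.3%). Of these pairs only the arrays numbered 1 share a slide, slide E. Those numbered 2 lie on slides B and A, and those numbered 3 on slides D and E. This block was added after the data were seen. Prdm1 in Treg samples then had -1.31 ± 0.23 with an adjusted p of 0.0526, and in T-effector samples -0.84 ± 0.10 with an adjusted p of 1.36e-04. The other 2 past the test in T-effector samples were Cxcr5 (0.61 ± 0.10, adjusted p = 0.00149) and Ascl2 (0.44 ± 0.10, adjusted p = 0.00842), and Ascl2 had not passed without the block.

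The comparison of IL6 with IL2 asks what IL6 does in the absence of TGFb. In Treg samples 0 of the 7 genes passed, where 0.985% of all genes did. In T-effector samples 1 passed, where 0.804% did. Prdm1 had 7.83, 7.51 and 7.25 in IL6 T-effector samples, against 6.55, 6.38 and 6.60 in IL2 T-effector samples. The groups do not overlap, and Prdm1 rose by 0.97 ± 0.23 (1.96-fold, limma, adjusted p = 0.0434), with 0.97 within slide A. That call was lost without any 1 of 9 arrays, all 3 IL2, all 3 TGFb, TGFb with IL6 arrays 1 and 2 and IL6 array 1 (0.85 to 1.04, adjusted p = 0.0618 to 0.32), and with slide as a block (0.77, adjusted p = 0.46). In Treg samples Prdm1 had 8.34, 7.54 and 8.60 with IL6 and 7.85, 7.90 and 7.55 with IL2, which overlap (0.44 ± 0.23, adjusted p = 0.608). Within slide A that difference was -0.30, the opposite sign to the fit.

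Cxcr5 had 7.08, 6.97 and 7.03 in IL6 T-effector samples, against 7.86, 7.54 and 7.78 in IL2 T-effector samples, a difference of -0.78 ± 0.19 that missed the threshold (limma, adjusted p = 0.0537) although the groups do not overlap. Bcl6 had 8.48, 10.28 and 8.04 in IL6 Treg samples, against 9.33, 8.59 and 9.25 in IL2 Treg samples, with array 2 above and arrays 1 and 3 below every IL2 value (-0.20 ± 0.51, adjusted p = 0.999). In T-effector samples Bcl6 had 8.03, 8.80 and 8.55, against 9.17, 8.59 and 9.03 (-0.40 ± 0.51, adjusted p = 1). Pou2af1 shows the same single high array, with 10.70, 11.96 and 10.56 in IL6 Treg samples, against 11.01, 11.03 and 11.82 in IL2 Treg samples (-0.30 ± 0.30). Within slide A, which holds IL6 array 2, the Treg differences of Bcl6 and Pou2af1 were 0.95 and 0.94, the opposite sign to the fit, and their T-effector differences -0.37 and 0.001. Slamf6 differed by -0.53 ± 0.22 in Treg and in T-effector samples (adjusted p = 0.444 and 0.763), and neither pair of its groups overlaps, with -0.58 and -0.49 within slide A. Its second probe differed by -0.47 ± 0.14 and -0.39 ± 0.14 (adjusted p = 0.16 and 0.518). Sh2d1a and Ascl2 differed by -0.36 to 0.10, between groups that overlap, and by -0.78 to 0.39 within slide A. Cxcr5 differed there by 0.24 in Treg and -0.89 in T-effector samples.

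Treg and T-effector samples of the same culture condition were compared by the log ratio within each array, which is given with the dye term of the fit removed. Of the 7 genes Prdm1 had the largest difference under IL2. Its log2 ratios were 1.44, 1.38 and 0.81 in IL2 cultures, all above 0, with a fitted 1.21 ± 0.18 (2.31-fold higher in Treg, limma, adjusted p = 0.00285). With IL6 they were 0.66, 0.17 and 1.21 (0.68 ± 0.18, adjusted p = 0.0532), with TGFb 0.14, 0.39 and 0.11 (0.21 ± 0.18, adjusted p = 0.6), and with TGFb and IL6 0.16, 0.22, 0.25 and -0.26 (0.09 ± 0.16, adjusted p = 0.809). Cxcr5 was lower in Treg samples under IL2, with ratios of -0.95, -0.29 and -0.63 (-0.62 ± 0.15, adjusted p = 0.0255). That call was lost without IL2 array 1 or 3 (-0.62 to -0.39, adjusted p = 0.073 to 0.247). The 2 genes past the test under IL2 stand against 11% of all genes.

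Under TGFb, Sh2d1a had ratios of -1.57, -1.25 and -0.91, and Pou2af1 -0.71, -1.41 and -1.29. Both were lower in Treg samples, with -1.24 ± 0.22 (limma, adjusted p = 0.00742) and -1.14 ± 0.22 (adjusted p = 0.0117), where 5.97% of all genes passed. The Sh2d1a call was lost without TGFb array 1 (-1.08, adjusted p = 0.0653), the Pou2af1 call without TGFb array 2 or 3 (-1.03 to -0.999, adjusted p = 0.0734 to 0.192), and both without slide B (adjusted p = 0.0944 and 0.126). With TGFb and IL6, Sh2d1a had -1.18, -0.88, -0.69 and -0.74, all below 0 (-0.87 ± 0.19, adjusted p = 0.0215), as 1 of 7 genes against 5.84% of all genes. That call was lost without any 1 of the 4 arrays of the condition (-0.94 to -0.76, adjusted p = 0.0602 to 0.156) and without slide B (-0.94, adjusted p = 0.264). With IL6, 0 of 7 passed, against 5.84% of all genes, and Sh2d1a had -0.40, 0.88 and -0.13. Bcl6 passed in no condition, with fitted ratios of 0.09 ± 0.25 (TGFb with IL6), -0.59 ± 0.29 (TGFb), 0.40 ± 0.29 (IL6) and 0.20 ± 0.29 (IL2). Without slide E the Bcl6 ratio passed under TGFb (limma, -0.93, adjusted p = 0.00607), on TGFb arrays 2 and 3. That leaves out TGFb array 1, with a ratio of 0.075. It keeps TGFb array 2, with -1.46 and a Treg signal not well above background. Under IL6 the Bcl6 ratio was then 1.56, on IL6 array 2 alone. Slamf6 came closest under TGFb, with -1.11, -0.57 and -0.36 (-0.68 ± 0.20, adjusted p = 0.069). It passed with Agilent's processed signals, with the spatial trend removed and with slide as a block (-0.76 to -0.61, adjusted p = 0.00223 to 0.00337), whereas its second probe had -0.14 ± 0.12 (adjusted p = 0.622). Ascl2 had fitted ratios between -0.21 and 0.25 in the 4 conditions, and -0.46 under IL6 with median centring in place of loess (adjusted p = 0.0247).

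**Figure D3:**
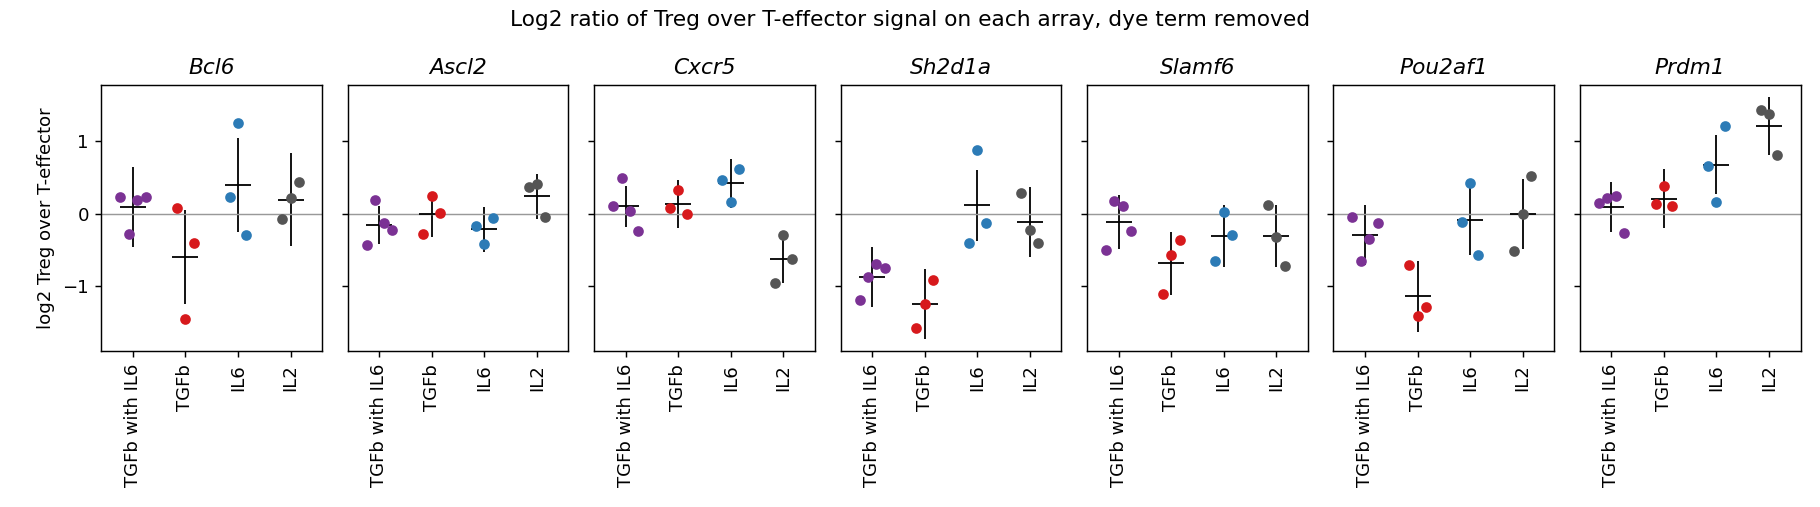
Log2 ratio of Treg over T-effector signal with the dye term removed (y axis, shared), 1 point per array, by condition, with the fitted value and its 95% interval in black. Prdm1 lies between 0.81 and 1.44 in IL2 cultures and between 0.11 and 0.39 with TGFb.

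Whether the Treg over T-effector ratio itself changed between conditions was tested by its difference. Prdm1 was the 1 member past the test for TGFb over IL2, with a difference of -0.997 ± 0.26 (limma, adjusted p = 0.0489), where 5.87% of all genes passed. Its call was lost without any 1 of 9 arrays, IL2 arrays 1 and 2, all 3 TGFb and all 4 TGFb with IL6 arrays (-1.08 to -0.82, adjusted p = 0.0574 to 0.221). Of 25 alternatives 9 kept it, and it was also lost with Agilent's processed signals and with median centring. The difference was 0.76 ± 0.22 for Cxcr5, -1.13 ± 0.32 for Sh2d1a and -1.14 ± 0.32 for Pou2af1, with ratios that do not overlap between TGFb and IL2 (adjusted p = 0.0659, 0.0599 and 0.0595). For IL6 over IL2, 0 members and 0% of all genes passed, and 683 genes had an unadjusted p under 0.05, with Cxcr5 at 1.05 ± 0.22 (adjusted p = 0.605). For TGFb with IL6 over IL6, 0 members and 3.99% of all genes passed, with Sh2d1a at -0.99 ± 0.29 (adjusted p = 0.0796). Without slide E the ratio difference of Bcl6 passed for TGFb over IL2 (limma, -1.02, adjusted p = 0.00937), on TGFb arrays 2 and 3. Of these, array 2 had a Treg signal not well above background. For TGFb with IL6 over IL6 the Bcl6 difference was then -1.62, on IL6 array 2 alone.

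For TGFb with IL6 over TGFb, 0 members and 0.291% of all genes passed without a block, and 3 members and 8.5% with the replicate block. Those 3, all with the ratio higher, were Pou2af1 (0.79 ± 0.08, adjusted p = 0.00182), Slamf6 (0.61 ± 0.08, adjusted p = 0.0046) and Sh2d1a (0.32 ± 0.07, adjusted p = 0.0356). Without the block they had 0.845 ± 0.29, 0.57 ± 0.26 and 0.37 ± 0.29 (adjusted p = 0.585, 0.966 and 1). The second Slamf6 probe had 0.008 ± 0.16 without the block (adjusted p = 1).

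The upstream sequences of members that moved under TGFb are shown because Bcl6, Pou2af1 and Slamf6 fell together in Treg samples and Prdm1 fell beside them. RefSeq's promoter table for GRCm38.p6 held 5 of the 7 genes. For the 4 of these that fell in Treg samples the 250 bases before the annotated start are given here, 5′ to 3′ on the gene's strand. Bcl6 had 2 entries, and the upstream one on its strand was taken. Capitals mark matches, on either strand, to 4 short motifs. These are a STAT palindrome (TTCNNNGAA), an AP-1 element (TGANTCA), a SMAD box (CAGAC) and the octamer (ATGCAAAT). The regions are chr16:23988853-23989102 (minus) for Bcl6, chr10:44458749-44458998 (minus) for Prdm1, chr9:51213440-51213689 (plus) for Pou2af1 and chr1:171917212-171917461 (plus) for Slamf6.
Bcl6: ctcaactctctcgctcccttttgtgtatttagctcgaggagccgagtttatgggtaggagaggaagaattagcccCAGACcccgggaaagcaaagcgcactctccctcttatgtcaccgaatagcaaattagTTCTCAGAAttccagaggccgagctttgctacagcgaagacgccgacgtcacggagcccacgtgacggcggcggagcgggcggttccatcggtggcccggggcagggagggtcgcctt
Prdm1: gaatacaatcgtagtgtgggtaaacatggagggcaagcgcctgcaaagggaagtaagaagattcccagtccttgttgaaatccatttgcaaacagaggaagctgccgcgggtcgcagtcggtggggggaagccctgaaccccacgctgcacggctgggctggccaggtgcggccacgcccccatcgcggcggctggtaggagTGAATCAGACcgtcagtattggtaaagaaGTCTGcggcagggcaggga
Pou2af1: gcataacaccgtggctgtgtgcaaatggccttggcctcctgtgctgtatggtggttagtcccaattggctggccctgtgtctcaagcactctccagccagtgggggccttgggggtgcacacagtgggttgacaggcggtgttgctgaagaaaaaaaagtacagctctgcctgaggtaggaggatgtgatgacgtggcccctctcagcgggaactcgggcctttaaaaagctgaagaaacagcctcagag
Slamf6: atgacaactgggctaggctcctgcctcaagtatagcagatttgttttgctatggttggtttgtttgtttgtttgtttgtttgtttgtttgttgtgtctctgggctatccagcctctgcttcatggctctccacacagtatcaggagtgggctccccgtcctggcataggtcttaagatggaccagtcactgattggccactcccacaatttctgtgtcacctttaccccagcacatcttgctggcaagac

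The Bcl6 sequence holds 1 STAT match and 1 SMAD match. The Prdm1 sequence holds 1 AP-1 match and 2 SMAD matches, of which 1 overlaps the AP-1 match. The Pou2af1, Slamf6 and Ascl2 sequences hold 0 matches to the 4 motifs. Of 32851 promoter entries, 7.02% held the STAT motif, 6.75% the AP-1 motif, 42.2% the SMAD motif and 1.6% the octamer in the same window. The matches are letters only, and the arrays measured no binding.

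Other genes of follicular helper cells were taken from a list of 27, of which 25 were measured (Sostdc1 did not pass the filter and Tox2 had 0 probes). For TGFb over IL2, 3 rose and 9 fell in Treg samples (median -0.16), where 7.9% of all genes passed. In T-effector samples 3 rose and 3 fell (median -0.02), where 4.53% passed. Nt5e, the ecto-enzyme CD73, had 11.20 to 11.55 in TGFb Treg samples against 7.09 to 8.33 in IL2 Treg samples, and rose by 3.80 ± 0.37 in Treg (limma, adjusted p = 3.65e-07) and 3.87 ± 0.37 in T-effector samples (adjusted p = 9.83e-07). In Treg samples Il4, a cytokine of Th2 and follicular helper cells, fell by 2.37 ± 0.53, the AP-1 family factor Batf by 1.84 ± 0.34 and the inhibitory receptor Btla by 1.71 ± 0.15 (adjusted p = 0.00535, 8.32e-04 and 1.15e-07). In T-effector samples the SLAM receptors Cd84 and Slamf1 fell by 0.96 ± 0.11 and 0.91 ± 0.17, and Pdcd1, which encodes PD-1, rose by 0.73 ± 0.21 (adjusted p = 5.6e-06, 0.0025 and 0.0468).

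Between TGFb with IL6 and TGFb, 5 listed genes rose and 2 fell in Treg samples (median 0.04), where 5.72% of all genes passed. In T-effector samples 5 rose and 4 fell (median -0.03), where 7.61% passed. With the replicate block the counts called were 13 in Treg and 19 in T-effector samples, where 20% and 27.1% of all genes passed. Il21, the cytokine by which follicular helper cells act on B cells, had 11.18 to 11.46 in Treg samples with TGFb and IL6 against 6.52 to 7.10 with TGFb, and 12.16 to 12.83 against 7.95 to 8.45 in T-effector samples. It rose by 4.55 ± 0.35 and 4.33 ± 0.35 (limma, adjusted p = 1.87e-08 and 3.41e-08). Tcf7, the factor TCF-1 that acts upstream of Bcl6, rose by 1.90 ± 0.26 in Treg and 1.88 ± 0.26 in T-effector samples (adjusted p = 4.88e-05 and 4.65e-05). Il6st, the signal-transducing chain of the IL6 receptor, rose by 1.73 ± 0.11 and 1.11 ± 0.11 (adjusted p = 1.59e-09 and 9.09e-07). Il21r rose by 1.197 ± 0.14 in Treg samples (adjusted p = 6.51e-06). Cd200, a surface glycoprotein of follicular helper cells, fell by 1.80 ± 0.12 in T-effector samples (adjusted p = 3.17e-09).

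For IL6 over IL2, 2 listed genes rose and 2 fell in each sample type, with medians of 0.003 in Treg and -0.05 in T-effector samples. There 0.985% of all genes passed in Treg and 0.804% in T-effector samples. Il21 had 9.62 to 11.86 in IL6 Treg samples against 7.83 to 8.28 in IL2 Treg samples, and rose by 3.04 ± 0.38 in Treg and 4.01 ± 0.38 in T-effector samples (limma, adjusted p = 1.24e-04 and 4.06e-06). Btla and Cd200 fell in both, by 0.73 ± 0.15 and 0.93 ± 0.13 in Treg samples (adjusted p = 0.0204 and 6.44e-04) and by 0.86 ± 0.15 and 0.77 ± 0.13 in T-effector samples (adjusted p = 0.00504 and 0.00376). For TGFb with IL6 over IL6, 4 rose and 8 fell in Treg samples (median -0.01), where 10.3% of all genes passed. In T-effector samples 5 rose and 7 fell (median 0.24), where 11.4% passed. With the replicate block 7 and 20 were called, where 3.19% and 32.3% of all genes passed. Without the block Nt5e rose by 3.43 ± 0.35 in Treg and 4.25 ± 0.35 in T-effector samples (limma, adjusted p = 4.2e-07 and 1.89e-08).

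In the Treg over T-effector ratio, 5 listed genes were higher in Treg samples and 5 lower with TGFb and IL6 (median -0.05). The counts were 1 and 5 with TGFb (median -0.07), 3 and 1 with IL6 (median 0.001) and 5 and 3 with IL2 (median -0.02). In that order 5.84%, 5.97%, 5.84% and 11% of all genes passed. Icos, the costimulatory receptor, was higher in Treg samples under IL2 by 1.24 ± 0.09 and under IL6 by 1.05 ± 0.09 (limma, adjusted p = 2.65e-05 and 9.62e-05). Irf4 was lower under both, at -0.88 ± 0.19 and -0.79 ± 0.19 (adjusted p = 0.0155 and 0.0351). Under TGFb, Btla and Cd200 were lower in Treg samples, at -1.41 ± 0.13 and -1.37 ± 0.11 (adjusted p = 9.78e-05 and 5.09e-05). With TGFb and IL6, Il6st was higher at 1.09 ± 0.07, and Tcf7 and Lef1 lower at -0.86 ± 0.20 and -0.77 ± 0.15 (adjusted p = 1.01e-05, 0.0288 and 0.0123).

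The list of 19 genes on the side of Blimp1, of IL2 signalling or of exit from follicles was measured in full. For TGFb over IL2, 3 rose and 6 fell in Treg samples (median 0.06), where 7.9% of all genes passed. In T-effector samples 0 rose and 3 fell (median 0.13), where 4.53% passed. Gpr183, a receptor that guides cells to the edge of follicles, fell by 1.97 ± 0.21 in Treg and 1.45 ± 0.21 in T-effector samples (limma, adjusted p = 8.79e-07 and 1.27e-04). The E protein inhibitor Id2 fell by 1.30 ± 0.16 in Treg samples (adjusted p = 1.01e-05).

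Between TGFb with IL6 and TGFb, 9 of the 19 rose in Treg and 10 in T-effector samples, and 0 fell in either (medians 0.57 and 0.69). Over all genes 5.72% passed in Treg (2.88% higher) and 7.61% in T-effector samples (4.22% higher). With the replicate block 15 of the 19 were called in each, where 20% and 27.1% of all genes passed. Il10, which Blimp1 is known to promote in T cells, rose by 2.73 ± 0.29 in Treg and 2.50 ± 0.29 in T-effector samples (limma, adjusted p = 1.99e-06 and 5.32e-06). S1pr1, the receptor for egress from lymph nodes, rose by 2.29 ± 0.41 and 2.59 ± 0.41 (adjusted p at most 9.55e-04). Prdm1 itself did not pass the test in either sample type, except in T-effector samples with Agilent's processed signals, as given above.

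For IL6 over IL2, 3 of the 19 rose in each sample type and 0 fell (limma), with medians of 0.42 and 0.53. There 0.985% of all genes passed in Treg and 0.804% in T-effector samples. Between TGFb with IL6 and IL6, 5 rose and 3 fell in Treg samples (median 0.23), where 10.3% of all genes passed. In T-effector samples 7 rose and 2 fell (median 0.42), where 11.4% passed. With the replicate block 3 and 14 were called, where 3.19% and 32.3% of all genes passed. Without the block Klf2, which opposes the follicular fate in part through S1pr1, rose by 2.49 ± 0.42 in T-effector samples (limma, adjusted p = 3.36e-04). Tbx21, the Th1 factor, fell by 1.37 ± 0.38 in Treg samples (limma, adjusted p = 0.0236), between groups that overlap. In the ratio of Treg over T-effector, 2 were higher and 2 lower with TGFb and IL6. The counts were 5 and 1 with TGFb, 4 and 0 with IL6, and 6 and 1 with IL2. Shares of all genes past the test were 5.84%, 5.97%, 5.84% and 11% in that order. Under IL2, where Prdm1 was higher in Treg samples, Il10 was higher by 1.06 ± 0.22 and Klf2 by 1.69 ± 0.35 (limma, adjusted p = 0.0128 for each). Gzmb was lower at -0.79 ± 0.20 (limma, adjusted p = 0.0272). Before removal of the dye term 2 of 3 Gzmb ratios were below 0, and 3 of 3 ratios of Il10 and of Klf2 were above 0.

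**Figure D4:**
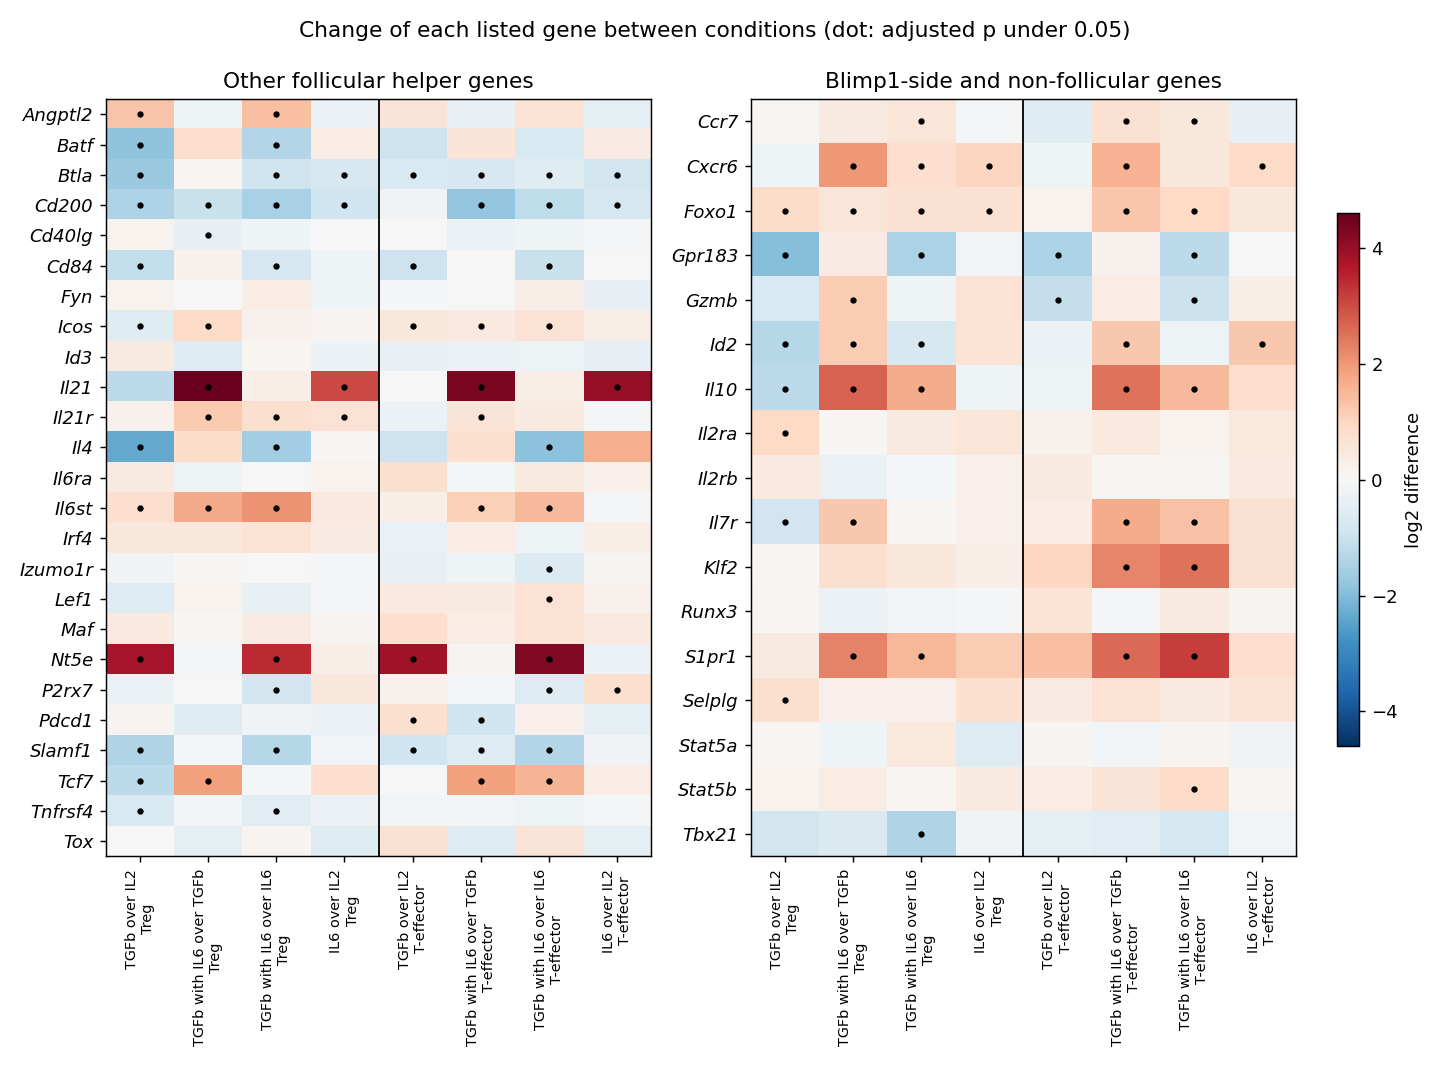
Log2 difference (colour) of the genes of the 2 lists that are reported here (rows) in 4 comparisons of conditions for Treg and T-effector channels (columns), with a dot where the adjusted p was under 0.05. Il21 reaches 4.55 and Nt5e 3.80 in Treg channels, and the Blimp1-side genes with a dot for TGFb with IL6 over TGFb all lie above 0.

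Bcl6, Cxcr5 and Pou2af1 are also genes of B cells, and Prdm1 of plasma cells, so the markers of these cells are given beside them. Of 14 B cell markers 12 were measured. Ms4a1 was well above background in 11 of 13 Treg and in 13 of 13 T-effector channels, Cd79a in 3 and 5, Pax5 in 1 and 4 and the plasma cell marker Jchain in 2 and 1. The summed B cell marker signal was 5324 to 5851 in Treg samples with TGFb and IL6, 10072 to 11170 with TGFb, 4470 to 5370 with IL6 and 6007 to 7463 with IL2. In T-effector samples the sum was 1897 to 3146 with TGFb and IL6, 3187 to 4060 with TGFb, 2550 to 2834 with IL6 and 6208 to 6705 with IL2. The mean log2 signal of the 12 markers, in which bright markers weigh less than in a sum, was 6.96 to 7.15 in Treg samples with TGFb and IL6, 7.28 to 7.44 with TGFb, 7.36 to 7.50 with IL6 and 7.49 to 7.89 with IL2. Treg samples with TGFb thus lie above those with IL2 in the sum and below them in the mean. For TGFb over IL2, 1 marker rose and 3 fell in Treg samples, where 7.9% of all genes passed. The 1 that rose was Ighm, by 1.18 ± 0.13 (limma, adjusted p = 1.42e-06). In T-effector samples 0 rose and 7 fell, where 4.53% of all genes passed. Cd79b fell by 2.70 ± 0.27 in T-effector samples (limma, adjusted p = 1.27e-06), beside Pou2af1 and Cxcr5, and its part in those changes was not tested. For IL6 over IL2, 5 markers fell in T-effector samples, where 0.804% of all genes passed. There Cxcr5 had -0.78 ± 0.19 (limma, adjusted p = 0.0537), Bcl6 -0.40 ± 0.51 and Pou2af1 -0.22 ± 0.30. The part of B cells in these values was not tested. For TGFb with IL6 over TGFb, where Pou2af1 and Cxcr5 rose in both sample types, 0 of 12 B cell markers rose and 2 fell in each. The 2 that fell were Cd74 and Ighm. There 5.72% of all genes passed in Treg and 7.61% in T-effector samples. For TGFb with IL6 over IL6, where Cxcr5 rose in T-effector samples, 1 of 12 rose and 4 fell in Treg samples. In T-effector samples 1 rose and 3 fell. The test was passed by 10.3% of all genes in Treg and 11.4% in T-effector samples. In the Treg over T-effector ratio under IL2, where Cxcr5 was lower, 0 B cell markers were higher and 3 lower. Of all genes 11% passed there. Under TGFb, where Pou2af1 was lower, 2 were higher and 0 lower, and 5.97% of all genes passed. Of 7 plasma cell markers, Xbp1 rose by 1.55 ± 0.17 and Mzb1 fell by 1.59 ± 0.22 in Treg samples for TGFb over IL2 (adjusted p = 2.38e-06 and 4.25e-05), beside Prdm1, and their part was not tested. Mzb1 also fell by 2.60 ± 0.22 in T-effector samples (adjusted p = 2e-07), where Prdm1 did not pass. In the comparison of TGFb with IL6 and TGFb, 0 plasma cell markers passed in either sample type. Cd79b, Cd74, Ighm, Xbp1 and Mzb1 were picked after their values were seen.

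The genes with the pattern most like that of Bcl6 over the 26 channels, after removal of each dye's mean, were Ik (r = 0.91), Cibar1 (r = 0.89) and Smchd1 (r = 0.88), of 10749 genes well above background in every channel. These are descriptions, since the channels of an array share a spot and arrays share slides. Ik, Cibar1 and Smchd1 passed the test neither for TGFb over IL2 nor for TGFb with IL6 over TGFb in Treg samples (adjusted p = 0.135 to 0.35). Prdm1 was most like P2rx7 (r = 0.89), Nfil3 (r = 0.88) and Csta2 (r = 0.87). Between Bcl6 and Prdm1 r was 0.30, and Bcl6 had r = 0.75 with Pou2af1, 0.67 with Slamf6, 0.42 with Cxcr5, -0.29 with Sh2d1a and -0.51 with Ascl2.

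The authors' deposited table gives 1 value per probe and condition, on a scale that is not stated. The values ran in the direction Treg over T-effector (r = 0.77 to 0.80 with the mean log2 ratios, slope 1.42 to 1.76 across probes). In the authors' deposited table Prdm1 stood at 0.44 with TGFb and IL6, 0.34 under TGFb, 0.61 under IL6 and 1.96 under IL2. Sh2d1a stood at -1.06 with TGFb and IL6 and -1.30 under TGFb, and Pou2af1 at -1.39 under TGFb, in that table of the authors. Its Cxcr5 and Pou2af1 values under IL6, -0.02 and 0.06, have the opposite sign to the fitted 0.42 and -0.08, which did not pass the test. Its Ascl2 value under IL6 was -1.43, against a fitted -0.21.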

How the data were processed

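RNA of Treg and T-effector samples was hybridised to 13 two-colour Agilent mouse arrays. Per the file headers, the deposited intensities were extracted with Agilent Feature Extraction 9.5.1.1 as mean spot and median local background brightness in each dye, and the processed intensities were background-subtracted and dye-normalized. The log10 ratio of Cy5 over Cy3 was computed by the same software, per the file headers, and was not used here. The authors' deposited table gives each probe a single log2 value in a condition, with scale, centring and direction not stated. Its direction and slope were found by setting it against the scanner values, its column medians were -0.016 (TGFb with IL6), -0.054 (TGFb), -0.043 (IL6) and -0.083 (IL2), and its centring stays unknown.

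Spots were background-corrected with normexp (offset 50), normalized by loess within arrays and fitted with limma 3.58.1 (R 4.3.3). Treg over T-effector ratios were fitted with a dye term for each gene (8 residual degrees of freedom). Levels were quantile-normalized on mean intensity and fitted as separate channels using a correlation of 0.43 between the channels of a spot, which left 17 residual degrees of freedom. P-values are limma's, adjusted by Benjamini-Hochberg over 19901 genes, with a threshold of 0.05, and SE stands for the standard error. Of the tested genes 135 had a value missing on an array. The number of arrays limits the precision. 0 columns of sample values were left unmapped. Probes were named through RefSeq by accession (22944), by the name in the array files where RefSeq gave none (8458), by symbol (6664) or by synonym (3108). Scripts were tested on simulated data.

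The members and lists were chosen with earlier results of these data known. The text names all 7 members, up to 4 genes of each list and comparison with the largest change past the threshold, the 3 genes most like Bcl6 and Prdm1, and defining markers, except some genes that are not reported here by name. Same-numbered arrays 1 to 3 of TGFb with IL6 and of TGFb deviated together (r = 0.53 to 0.83 for ratios, 0.44 to 0.71 for Treg and 0.66 to 0.87 for T-effector channels) and share slide and dyes, and those of TGFb with IL6 and IL6 did so for channels (r = 0.22 to 0.28 and 0.63 to 0.78). The numbers of the other comparisons do not pair arrays. Alternatives covered background correction, normalization, filters, blocks, dye term, each array and slides B and E, the slides and the IL6 pairs having been added after seeing the data.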

Additional observations from a re-analysis of the deposited data

Results flagged for a closer look

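In the 4 arrays with TGFb and IL6, 21 groups of 4 values were examined (7 genes in Treg channels, T-effector channels and ratios), and 4 held a value far from the others, where chance gives about 1 group in 20. Pou2af1 in Treg samples was 10.893 on array 3, against 10.99 to 11.01 on the other arrays. Prdm1 in Treg samples was 7.19 on array 4, against 6.83 to 6.87 on the others. Sh2d1a in T-effector samples was 8.501 on array 3, against 9.04 to 9.12. The Bcl6 log2 ratio of Treg over T-effector, before removal of the dye term, was 0.456 on array 1, against -0.06 to 0.01 on the others, and with the dye term removed array 1 had 0.24 and array 2 stood apart at -0.28.

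The Treg over T-effector ratio of Prdm1 differed between TGFb and IL2 by -0.997 on the log2 scale (limma, adjusted p = 0.0489), with all 3 TGFb ratios below all 3 IL2 ratios. Its T-effector signals were low in both conditions, 6.31 to 6.53 with TGFb and 6.38 to 6.60 with IL2.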

How the results depend on the processing

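Of 27 member calls, 12 passed under every alternative run and 0 turned direction, and 16 passed without each array in turn. The counts below are members called, with the count of the reported fit in brackets, and the cause of each change was not tested. The number of all genes past the threshold also moved between settings. It is given below as a range and not for each setting, so no count is read as particular to the members. The Treg over T-effector ratio under IL2 (2) had 5 with median centring, where 9704 of the 19901 genes passed. It had 0 with normexp fitted on every spot, 0 with the replicate block over all conditions and 1 without the dye term. Under TGFb (2) it had 0 with normexp on all spots, 1 with median centring, 0 with that block and 0 without slide B. With TGFb and IL6 (1) it had 0 under each of normexp on all spots, median centring, that block and the data without slide B. Under IL6 (0) it had 1 with the spatial trend removed, 3 with median centring, 1 with the stricter filter, 3 with slide as a block and 1 without slide E. The ratio difference of TGFb over IL2 (1, Prdm1) had 0 with normexp on all spots, no filter and every probe tested. It also had 0 with the replicate block over all conditions and without slide B. Agilent's processed signals and the fit without the dye term gave 2. With the spatial trend removed, slide as a block and without slide E it had 4. Prdm1 was not among the 2 with Agilent's signals, and its call was also lost with median centring. The ratio difference of IL6 over IL2 (0) had 1 with slide as a block. That of TGFb with IL6 over IL6 (0) had 1 with Agilent's signals and with the spatial trend removed, and 3 with slide as a block and without slide E. That of TGFb with IL6 over TGFb (0) had 3 with the replicate block over pairs. T-effector channels, IL6 over IL2 (1), had 0 with normexp on all spots, Agilent's signals, no filter, slide as a block, the replicate block over all conditions, quantile normalization and without slide E, and 2 with the stricter filter. T-effector channels, TGFb with IL6 over IL6 (2), had 1 with normexp on all spots, the spatial trend removed, no filter, slide as a block and quantile normalization, and 0 without slide E. Treg channels there (1) had 0 with the replicate block over the IL6 pairs. Leaving out 1 array at a time gave these ranges. Ratio differences had 0 to 4 for TGFb over IL2, 0 to 1 for TGFb with IL6 over IL6, and 0 for the other 2. T-effector channels had 0 to 2 for IL6 over IL2, 3 to 4 for TGFb over IL2, 1 to 2 for TGFb with IL6 over IL6 and 3 to 4 for TGFb with IL6 over TGFb. Treg channels had 0 for IL6 over IL2, 3 to 5 for TGFb over IL2, 1 to 2 for TGFb with IL6 over IL6 and 4 to 5 for TGFb with IL6 over TGFb. Ratios had 1 to 2 under IL2, 0 to 1 under IL6, 1 to 2 under TGFb and 0 to 1 with TGFb and IL6. The ratio under TGFb gained Slamf6 with Agilent's signals, the spatial trend removed and slide as a block. Over all genes the number past the threshold moved by more than 1.5 times in each comparison in some alternative. In Treg channels it was 1573 for TGFb over IL2 (1031 to 2387 over the alternatives), 1139 for TGFb with IL6 over TGFb (464 to 3981), 2043 for TGFb with IL6 over IL6 (635 to 2758) and 196 for IL6 over IL2 (89 to 554). In T-effector channels it was 902 (452 to 1493), 1514 (594 to 5391), 2272 (720 to 6430) and 160 (82 to 207) for those comparisons, and for ratio differences 1168 (74 to 8403), 58 (0 to 1692), 795 (17 to 6113) and 0 (0 to 90). For the ratio itself it was 1163 with TGFb and IL6 (116 to 3621), 1189 with TGFb (201 to 3377), 1162 with IL6 (34 to 9015) and 2184 with IL2 (206 to 9704, the highest with median centring). Where a condition has 3 arrays, leaving out 1 leaves 2, which are assumed to vary like the other conditions. Signals near background, such as Cxcr5 and Prdm1 with TGFb and Prdm1 in IL2 T-effector samples, limit the fold changes that can be seen.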
